A study of Mus musculus with 30 samples.

Results

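The genes described here build the adherens and gap junctions of the intercalated disc, the contact at which heart muscle cells are joined end to end. They are Ctnna3, Ctnna1, Ctnnb1, Ctnnd1, Cdh2, Vcl, Tjp1, Gja1, Nrap and Xirp1, 10 of the 52550 genes counted. The set was selected on an earlier reading of these counts, in which Ctnna3 was lower in heterozygous mice, and its partners were added by name to see whether they followed. The heterozygous minus wild-type values of Ctnna3 are therefore given as a description with no test.

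Total RNA was measured in mouse cardiac myocytes in 6 groups of 5 libraries. Wild-type mice and Myh6-Cre:DspW/F mice, referred to as heterozygotes, were each sampled when 3 months old, when 6 months old and kept under regular activity, and when 6 months old with 3 months of endurance training on a treadmill behind them. Myh6-Cre is a transgene whose promoter limits Cre to heart muscle cells, and Dsp is the gene of desmoplakin, the desmosomal anchor of intermediate filaments. Whether the wild types also carry the transgene is not stated, so its presence and the Dsp allele cannot be told apart. Nor is it stated that replicates are separate animals, so p-values measure the spread between these libraries, which may be technical. In bulk RNA, fewer cells of a type and less RNA per cell cannot be told apart either.

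In an adherens junction the cadherin Cdh2 binds its like on the neighbouring cell, and its tail holds beta-catenin (Ctnnb1) and p120-catenin (Ctnnd1). Beta-catenin carries an alpha-catenin, which reaches actin directly and through vinculin. Heart muscle makes a widespread alpha-catenin, Ctnna1, and a muscle-enriched form, alphaT-catenin, from Ctnna3. AlphaT-catenin also binds the desmosomal protein plakophilin 2 and so touches the structure that contains desmoplakin. Gap junction channels of connexin 43, made from Gja1, lie beside these junctions and are bound by the scaffold ZO-1, made from Tjp1.

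Promoter sequence from RefSeq (GRCm38.p6) was examined for 7 of the 10 genes, and that of Cdh2 and Ctnna1 is not reported here. The 250 bases before an annotated start are shown for Ctnna3, the gene that led the choice of the set, for Ctnnb1, Tjp1 and Nrap, whose counts changed with exercise, and for Vcl, the actin linker with the most motif matches. Each run is 5′ to 3′ on the gene's own strand. Capitals mark matches on either strand to 5 motifs. TEAD factors were searched as GGAATG. For the family of GATA factors, regulators of many heart muscle genes, the letters were AGATAA. The E-box of basic helix-loop-helix factors was searched as CAGCTG. The SRF CArG box and the MEF2 site were searched by their usual degenerate forms, and no match overlapped another.
Ctnna3, chr10:63429848-63430097, plus strand: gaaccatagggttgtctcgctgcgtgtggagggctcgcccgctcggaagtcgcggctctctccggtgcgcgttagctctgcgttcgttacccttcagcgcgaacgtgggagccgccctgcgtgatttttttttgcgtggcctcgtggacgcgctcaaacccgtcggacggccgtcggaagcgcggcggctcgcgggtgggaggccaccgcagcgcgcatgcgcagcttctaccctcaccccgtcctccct
Ctnnb1, chr9:120933150-120933399, plus strand: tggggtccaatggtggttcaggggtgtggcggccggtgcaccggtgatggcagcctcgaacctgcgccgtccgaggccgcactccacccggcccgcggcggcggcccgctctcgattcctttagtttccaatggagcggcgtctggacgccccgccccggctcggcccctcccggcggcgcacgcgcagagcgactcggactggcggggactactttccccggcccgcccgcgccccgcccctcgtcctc
Tjp1, chr7:65371245-65371494, minus strand: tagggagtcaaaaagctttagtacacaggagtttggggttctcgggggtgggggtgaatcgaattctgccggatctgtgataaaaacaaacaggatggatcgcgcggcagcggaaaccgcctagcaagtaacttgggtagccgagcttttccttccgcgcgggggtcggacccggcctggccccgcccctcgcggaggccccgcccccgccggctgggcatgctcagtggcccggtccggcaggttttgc
Vcl, chr14:20929148-20929397, plus strand: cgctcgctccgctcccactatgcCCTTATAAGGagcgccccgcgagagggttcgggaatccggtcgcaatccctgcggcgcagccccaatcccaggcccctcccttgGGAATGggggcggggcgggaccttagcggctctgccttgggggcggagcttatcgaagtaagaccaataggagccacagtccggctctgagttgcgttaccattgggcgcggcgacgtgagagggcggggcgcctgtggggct
Nrap, chr19:56390039-56390288, minus strand: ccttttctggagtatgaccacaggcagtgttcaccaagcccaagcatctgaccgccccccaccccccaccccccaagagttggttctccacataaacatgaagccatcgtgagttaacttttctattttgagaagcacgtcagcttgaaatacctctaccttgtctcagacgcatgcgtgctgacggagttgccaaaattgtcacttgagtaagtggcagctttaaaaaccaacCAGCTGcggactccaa
Nrap held an E-box 16 to 11 bases before its start, which 13.0% of all 32851 such windows also held. Vcl held a TEAD motif (12.6% of windows) and an SRF CArG box (1.47% of windows). The windows shown for Ctnna3 (the first of its 3 annotated starts), Ctnnb1 (the first of 2) and Tjp1 held no match, which says nothing about the factors themselves. Those of Ctnnb1 and Tjp1 lie inside the longer spans that GENCODE gives these genes, so any start further upstream was not searched. Before its other starts Ctnna3 held a TEAD motif (start 2, 109 to 104 bases before) and an E-box (start 3, 175 to 170 bases before); those windows are not shown, and gene counts do not tell the starts apart.

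Total counts ran from 11.2 to 23.7 per library in units of 1e+06. Levels are given as CPM, the counts of a gene per 1e+06 counts of the scaled library. Ventricular myocyte markers summed to between 83920 and 130600 CPM in each library, so the labelled cell type was present. Fibroblast markers summed to 168 to 1155 and endothelial markers to 354 to 1907. Pericyte and smooth muscle markers summed to 903 to 1708, and atrial myocyte markers to 19.0 to 1227. These sums do not measure the share of each cell type. The exercised, the 6-month regular and the 3-month libraries differed in how many spike-in controls had a value (0, 11 to 18, and 3), so a difference in library handling cannot be told apart from exercise or age, whereas each of these sets holds both genotypes. Transcripts of the mitochondrial genome had a median share of 24.7% and 28.4% of counts in exercised wild type and heterozygotes, and of 16.1% and 18.8% in the regular ones. The library labelled 3-month heterozygote 3 had 1126 CPM of Dsp, against 573 to 741 in the other 4 of its group. Wild types 4 at 3 months and 2 and 5 at 6 months held Xist together with Y-linked transcripts, the smaller of these at 1.70% to 7.35% of their sum, against at most 0.773% in the other libraries. Each group mixed libraries with mainly Xist and libraries with mainly Y-linked transcripts, in proportions that differed with age and exercise. The part of sex was not tested. Dsp itself differed between genotypes by -0.50, -0.33 and -0.88 on the log2 scale at 3 months, at 6 months and with exercise, with edgeR adjusted p of 0.312, 0.657 and 0.0287.

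Levels of different genes were compared as CPM per kilobase of annotated exon. Nrap, an actin-binding scaffold of muscle, was highest in every group, at a mean of 136 to 197, and its range did not overlap that of the next gene in any group. Xirp1, Ctnna1 and Ctnnb1 followed at 53.5 to 82.7, then Gja1 and Cdh2 at 35.1 to 52.7. Vcl (11.7 to 14.9) and Tjp1 (8.81 to 13.3) lay well below the cadherin. Ctnna3 reached 7.58 to 7.80 in wild type and 3.23 to 4.84 in heterozygotes, the ninth place in all 6 groups, and Ctnnd1 was last at 0.834 to 1.69. Among the middle ranks neighbours often overlapped: in 6-month wild type, Xirp1 overlapped Ctnnb1 and Ctnnb1 overlapped Ctnna1, and Vcl overlapped Tjp1 and Tjp1 overlapped Ctnna3. The Ctnnd1 value is uncertain, because a second annotated gene on the same strand, Gm28635, shares 61.2% of its exon bases, and the authors' counting is not described for such reads. The Vcl value is uncertain too. Ap3m1, on the opposite strand, shares 25.5% of the Vcl exon bases and had 404 to 1027 counts in a library.

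**Figure D1:**
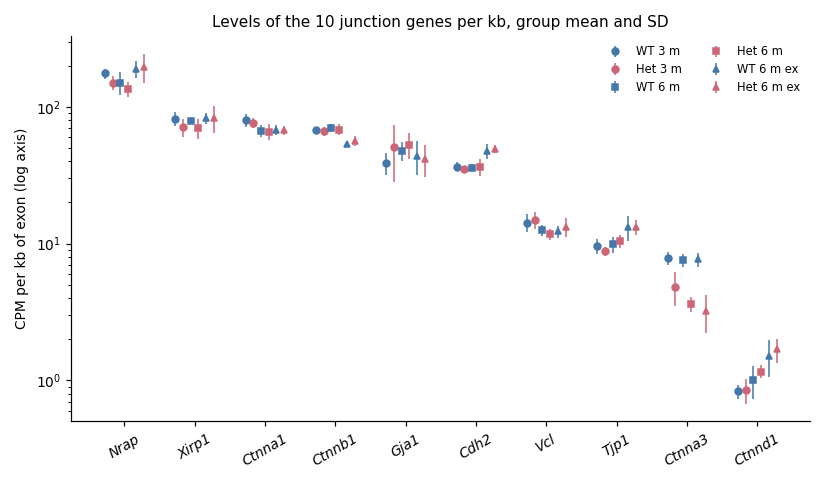
Group means (markers) and SD (bars, n = 5) of the 10 genes in CPM per kilobase of exon, on a log axis, with wild type in blue and heterozygotes in red. Nrap lies highest and Ctnnd1 lowest in each group, and Ctnna3 is the gene whose blue and red markers stand apart at every age.

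Ctnna3, alphaT-catenin, is 1573.6 kb long on chromosome 10 (63430098 to 65003667, GRCm38, plus strand), longer than 99.98% of the counted genes. At 3 months the wild-type libraries held 62.3, 60.7, 49.1, 58.8 and 50.85 CPM. The heterozygotes held 35.7, 31.8, 50.65, 24.6 and 32.2 CPM. The groups overlapped through the library labelled heterozygote 3, at 50.65, the same library whose Dsp count stood with the wild types. The difference was -0.69 (SE 0.173) on the log2 scale, 1.61-fold lower, and -0.86 without that library.

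At 6 months with regular activity, wild types held 55.9, 63.95, 50.8, 47.6 and 55.5 CPM of Ctnna3. Heterozygotes held 27.2, 22.9, 30.8, 27.1 and 23.2 CPM. The highest heterozygote lay below the lowest wild type, and the difference was -1.06 (SE 0.173), 2.09-fold lower. After exercise, wild types held 47.0, 60.4, 51.5, 55.0 and 63.0 CPM. The exercised heterozygotes held 27.2, 21.85, 25.45, 11.6 and 30.6 CPM, again with no overlap. That difference was -1.25 (SE 0.176), 2.38-fold lower, and -1.08 without exercised heterozygote 4, whose 11.6 CPM was the lowest of all 30 libraries. For scale, CPM ranges did not overlap for 1.40%, 4.02% and 1.84% of all 15587 tested genes in the 3 genotype comparisons, and adjusted p fell under 0.05 for 0.192%, 0.135% and 0.404%. Since Ctnna3 led the choice of the set, nothing is read from its place among these.

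**Figure D2:**
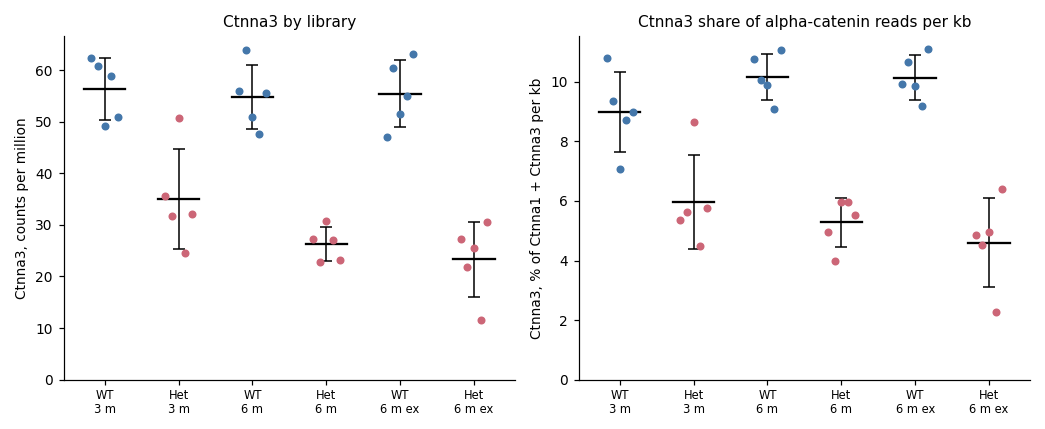
Left, Ctnna3 in CPM for each library (points) with the group mean and SD (bars, n = 5); right, Ctnna3 as a percentage of Ctnna1 plus Ctnna3 counts per kilobase of exon. Wild types lie at 47.0 to 63.95 CPM, and heterozygotes at 11.6 to 50.65, where the highest point is the library labelled 3-month heterozygote 3.

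Neither exercise nor age gave a called change of Ctnna3 within a genotype. Its choice did not use these contrasts, but those in heterozygotes share the groups in which it was low. Exercise differed from regular activity by 0.02 in wild type (95% interval -0.34 to 0.37, edgeR adjusted p = 0.978) and by -0.17 in heterozygotes (-0.53 to 0.19, adjusted p = 0.637). The 6-month minus 3-month difference was -0.04 in wild types by edgeR (adjusted p = 0.953). Among heterozygotes it was -0.42 (edgeR adjusted p = 0.172), and -0.22 without the library labelled 3-month heterozygote 3. The interactions of genotype with exercise (-0.19, edgeR adjusted p = 0.999) and with age (-0.37, adjusted p = 0.721) were not called. They compare the genotype differences by which Ctnna3 was chosen, so nothing is read from them.

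The gene body of Ctnna3 contains Lrrtm3 and Gm10118 on the opposite strand, with no shared exon bases. Lrrtm3, a synaptic leucine-rich protein gene, ran from 1.39 to 7.09 CPM over all libraries and differed between genotypes by 0.09, -0.19 and -0.25 (edgeR adjusted p = 0.944, 0.932 and 0.896). The genes whose log2 CPM followed Ctnna3 most closely over the 30 libraries were Dmd, the dystrophin gene (Pearson r = 0.895), Exoc2 (0.868) and Kcnd2 (0.868). Amy1 (0.862) and Immp2l (0.852) came next, out of 11188 genes compared. This is a description without a test: the libraries share genotype, age, exercise and library set. Of these 5, Dmd spans 2257.3 kb, Immp2l 931.5, Kcnd2 514.3, Exoc2 160.2 and Amy1 51.0.

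Ctnna1, the other alpha-catenin of heart muscle, showed no detectable difference between genotypes. Its counts at 6 months were 413, 508, 412, 423 and 397 CPM in wild type and 462, 490, 431, 381 and 352 in heterozygotes, which overlap over most of their range. The log2 differences were -0.07 at 3 months, -0.02 at 6 months and -0.01 with exercise, with 95% intervals from -0.27 to 0.19 over the 3 comparisons. The edgeR adjusted p was 0.842, 0.977 and 0.988. Ctnna3 made up 8.98% ± 1.34 (SD, n = 5) of alpha-catenin counts per kilobase in 3-month wild type and 5.98% ± 1.58 in heterozygotes. The shares were 10.2% ± 0.772 and 5.28% ± 0.831 at 6 months, and 10.1% ± 0.751 and 4.60% ± 1.49 after exercise. In no library did Ctnna3 exceed 11.1% of these counts.

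Of the 9 partners, 0 were called between genotypes at either age or after exercise, a count near the background, since 0.192%, 0.135% and 0.404% of all genes were called. The median log2 difference of the 9 was -0.06 at 3 months, -0.02 at 6 months and 0.05 with exercise. No partner separated the genotypes without overlap in any of the 3 comparisons, and none reached an unadjusted p under 0.05 by edgeR. Of all 15587 tested genes, 1.40%, 4.02% and 1.84% separated without overlap, and 1722, 1370 and 1525 reached that p. Beta-catenin (Ctnnb1), which links cadherin to alpha-catenin, differed by -0.03, -0.04 and 0.07, with intervals between -0.21 and 0.24. N-cadherin (Cdh2) differed by -0.06, 0.01 and 0.05, with intervals between -0.26 and 0.25.

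Vinculin (Vcl) differed between genotypes by 0.06, -0.10 and 0.11, with intervals between -0.34 and 0.35. The junction scaffold Tjp1 differed by -0.12, 0.07 and -0.01, within -0.38 to 0.32. Nrap differed by -0.23, -0.14 and 0.06, and Xirp1, the Xin repeat protein that binds beta-catenin and actin at the disc, by -0.20, -0.17 and 0.01. For Nrap and Xirp1 the lower bounds reached -0.51 and -0.46, so a moderate decrease at 3 months is not excluded. Ctnnd1, with 4.89 to 16.2 CPM, differed by 0.03, 0.21 and 0.16, within -0.38 to 0.62.

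Gja1, connexin 43, had the largest SE of the 10 genes in these comparisons (0.255). At 3 months the wild types held 447, 445, 281, 373 and 444 CPM, and the heterozygotes 790, 762, 419, 379 and 272. The mean difference of 0.40 (95% interval -0.13 to 0.93, edgeR adjusted p = 0.591) rests on heterozygotes 1 and 2, which stand far above all others, and it was -0.16 without them. In those 2 libraries small RNA genes took 4.54% and 3.78% of the counts, against 2.12% to 2.84% in the other 3-month libraries, and whether this had a part was not tested. At 6 months the difference was 0.15 (edgeR adjusted p = 0.936), and with exercise -0.07 (adjusted p = 0.973). In the 6-month regular libraries fibroblast markers summed to 543 to 918 CPM in heterozygotes and 393 to 534 in wild type, and macrophage markers to 54.5 to 108 and 18.4 to 35.3. Their part in the values of the junction genes was not tested.

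**Figure D3:**
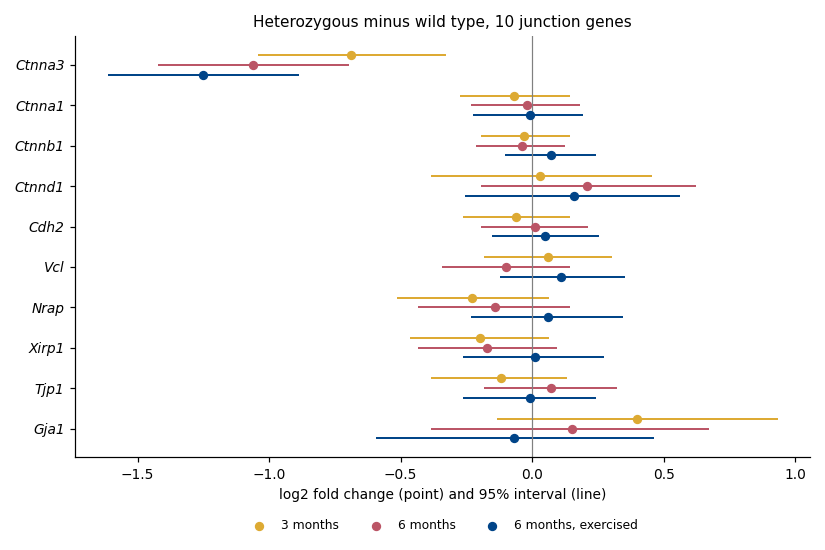
Heterozygous minus wild-type log2 fold change (points) with 95% intervals (lines) of the 10 genes at 3 months, at 6 months and after exercise. Ctnna3 lies at -0.69, -1.06 and -1.25. It led the choice of the set, so its intervals are drawn as a description and are not a test. The 9 partners lie between -0.23 and 0.40 with every interval crossing 0.

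Of 18 tested adherens junction genes outside the set, 14 connexins and gap junction partners, 25 vinculin, talin and actin linker genes and 22 Xin, Nrap and disc-enriched muscle genes, 0 were called in any of the 3 genotype comparisons by edgeR. At the shares called over all genes, 0.135% to 0.404%, this count is near the background. Their medians lay between -0.10 and 0.16. Among the 8 tested desmosome genes, Dsp with exercise was the single call.

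Several partners differed between exercised and regular libraries in both genotypes, and library handling cannot be told apart from exercise here. In wild type 3 of 10 were called: Cdh2 and Tjp1 rose and Ctnnb1 fell. In heterozygotes 3 of 10 were called: Cdh2 and Nrap rose and Ctnnb1 fell. Of all tested genes 9.69% were called with exercise in wild type and 8.82% in heterozygotes. With only 10 genes, 3 calls are too few to tell the set from these shares. The calls of Tjp1 in wild type and of Ctnnb1 and Nrap in heterozygotes were each lost in some fits without 1 library. The median over the 10 genes was 0.04 in wild type and 0.21 in heterozygotes, against 0.01 and 0.00 over all tested genes. Exercised wild type 1 and exercised heterozygote 4 stood apart from their groups in several of these genes. Without both, an alternative chosen after seeing the data, the calls were 3 in wild type (Cdh2, Ctnnb1 and Nrap) and 2 in heterozygotes (Cdh2 and Ctnnb1).

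Cdh2, the only classical cadherin in the set, held 304, 305, 296, 275 and 273 CPM in regular wild types. The exercised wild types held 302, 419, 392, 398 and 420. Exercised wild type 1 lay among the regular libraries and the other 4 lay above all of them. The rise was 0.41 (SE 0.0955, edgeR adjusted p = 0.00496), 1.33-fold. In heterozygotes the counts went from 333, 335, 251, 256 and 288 CPM to 432, 409, 408, 391 and 359, with no overlap. The rise was 0.45 (SE 0.0955, edgeR adjusted p = 0.00247), 1.37-fold and in 10 of 10 libraries on its own side of the midpoint. Groups did not overlap for 10.6% of all genes with exercise in wild type and 9.12% in heterozygotes; for the 10 junction genes this held for Ctnnb1 in wild type and Cdh2 in heterozygotes.

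Ctnnb1, whose product binds the tail of that cadherin and also carries Wnt signals, went the other way. Regular wild types held 388, 386, 364, 344 and 341 CPM, and exercised ones 287, 266, 283, 282 and 269. All 5 exercised libraries lay below all regular ones, and the fall was -0.39 (SE 0.0808, edgeR adjusted p = 0.00172). In heterozygotes the regular libraries held 301, 388, 373, 348 and 359 CPM and the exercised ones 275, 278, 289, 334 and 284. There heterozygote 1 of the regular group and 4 of the exercised group overlapped, and the fall was -0.28 (SE 0.0808, edgeR adjusted p = 0.0267). This call was lost without regular heterozygote 2 (edgeR adjusted p = 0.0812) or 3 (0.0686), in a fit of the compared groups alone (0.102) and with no low-count filter (0.0736). Ulk4, on the opposite strand, shares 14.6% of the exon bases of Ctnnb1 but had at most 55 counts in a library.

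Tjp1, ZO-1, held 77.4, 81.3, 92.4, 70.6 and 64.6 CPM in regular wild types and 138, 83.7, 87.3, 102 and 107 in exercised ones. The rise of 0.42 (SE 0.121, edgeR adjusted p = 0.0216) leaned on exercised wild type 1, the highest library, and was 0.29 (adjusted p = 0.12) without it. The call was also lost without regular wild type 4 (edgeR adjusted p = 0.063) or 5 (0.0784), and without the 3 wild types that held transcripts of both sexes (0.136). It was lost too in a fit of the compared groups alone (edgeR adjusted p = 0.0619) and with no low-count filter (0.0599). In heterozygotes the difference was 0.35 (SE 0.121, edgeR adjusted p = 0.0691), from 87.1, 82.5, 91.7, 74.7 and 70.0 CPM to 86.4, 101, 106, 101 and 123. Exercised wild type 1 also had the largest mitochondrial share of all libraries, 46.9%, and its part in the Tjp1 value was not tested.

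Nrap held 710, 904, 693, 669 and 763 CPM in regular heterozygotes and 1071, 903, 934, 1542 and 974 in exercised ones. The rise was 0.54 (SE 0.139, edgeR adjusted p = 0.0122), and 0.38 (adjusted p = 0.0548) without exercised heterozygote 4, the library at 1542. In wild type the values were 923, 980, 850, 806 and 575 CPM and then 813, 1103, 1099, 1015 and 1178, a difference of 0.33 (edgeR adjusted p = 0.132). Exercised heterozygote 4 stood apart in several members at once. It was the highest of its group in Nrap, Xirp1 (669 CPM, others 406 to 483) and Ctnnb1, and the lowest in Gja1 (233 CPM, others 424 to 504) and Ctnna3. It was also the only library of its group with Xist (232 CPM) in place of Y-linked transcripts. The same held for exercised wild type 5 in its group (205 CPM). The part of sex in these values was not tested.

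**Figure D4:**
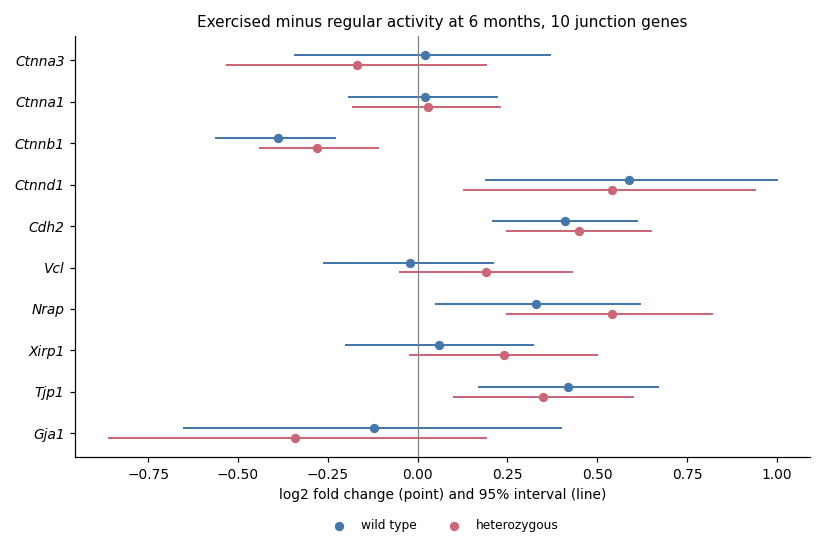
Exercised minus regular log2 fold change (points) with 95% intervals (lines) of the 10 genes in wild type (blue) and heterozygotes (red). Cdh2 lies at 0.41 and 0.45, Ctnnb1 at -0.39 and -0.28, and the intervals of the 2 genotypes overlap for each gene.

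The other members were not called with exercise. Ctnnd1 differed by 0.59 (edgeR adjusted p = 0.0508) with exercise in wild types, and by 0.54 (adjusted p = 0.0837) in heterozygotes, with intervals above 0. Exercised libraries held 7.78 to 16.2 CPM of it and regular ones 4.89 to 9.87. Ctnna1 differed by 0.02 and 0.03, Vcl by -0.02 and 0.19, Xirp1 by 0.06 and 0.24, and Gja1 by -0.12 and -0.34. For Gja1 the intervals ran from -0.86 to 0.40, so a moderate change is not excluded. Exercised wild type 1 (236 CPM) and heterozygote 4 (233 CPM) were the lowest Gja1 libraries of their groups by a wide gap.

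Whether the response to exercise depended on genotype was tested directly. The interaction was 0.04 for Cdh2 (95% interval -0.24 to 0.32), 0.12 for Ctnnb1 (-0.12 to 0.35), -0.08 for Tjp1 (-0.43 to 0.28) and 0.20 for Nrap (-0.20 to 0.61). All 10 had an edgeR adjusted p of 0.999, and 0.0128% of all genes were called. The 2 calls in Tjp1 (wild type) and Nrap (heterozygotes) are thus not shown to belong to a genotype.

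**Figure D5:**
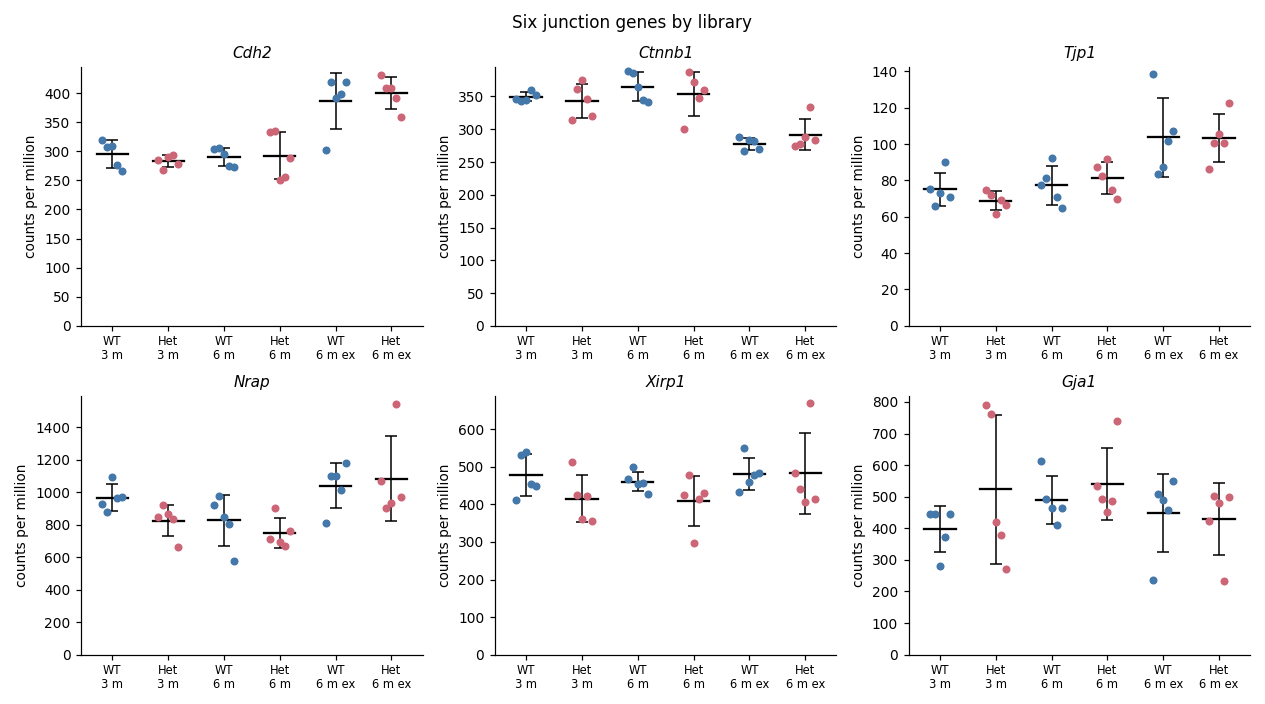
CPM of Cdh2, Ctnnb1, Tjp1, Nrap, Xirp1 and Gja1 in each library (points) with the group mean and SD (bars, n = 5), on axes that start at 0. Exercised groups lie higher in Cdh2 and lower in Ctnnb1, and exercised heterozygote 4 is the top point of its group in Nrap (1542) and Xirp1 (669).

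Of 18 other adherens junction genes, 4 were called with exercise in wild type (2 higher, 2 lower). In heterozygotes 3 were called (1 higher, 2 lower). Over all tested genes 9.69% were called with exercise in wild type and 8.82% in heterozygotes. Jup, plakoglobin, which shares the cadherin tail with beta-catenin, fell in both, by 0.46 (edgeR adjusted p = 0.00732) and 0.41 (adjusted p = 0.0185) on the log2 scale. Nectin2, an adhesion protein of the immunoglobulin family, fell by 1.19 in wild type (edgeR adjusted p = 1.22e-05), and the cadherin Cdh11 by 0.84 in heterozygotes (adjusted p = 0.0202). In wild type Cdh11 was lower by 0.52 without a call (edgeR adjusted p = 0.172). Ptpn11, a phosphatase gene, rose by 0.44 and 0.46 (edgeR adjusted p = 0.0463 and 0.0385), and the receptor phosphatase Ptprm by 0.41 in wild type (adjusted p = 0.04). The median of this list was -0.11 in wild type and -0.20 in heterozygotes. In this list and in those of the next 2 paragraphs, 0 genes had a called interaction of genotype with exercise. Over all tested genes 0.0128% had one. A gene named in 1 genotype alone is thus not shown to respond differently by genotype.

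Of 25 tested vinculin, talin and actin linker genes, 4 rose and 2 fell in wild type, and 5 rose in heterozygotes. For this list and the next, the share called over all tested genes was 9.69% in wild type and 8.82% in heterozygotes. Nexn, which binds actin at the Z-disc, rose by 1.14 and 0.99 (edgeR adjusted p = 9.27e-05 and 0.000514), and Enah, an actin elongation factor, by 0.60 and 0.62 (adjusted p = 0.0118 and 0.0109). Sorbs2, an adaptor that binds vinculin, rose by 0.78 in heterozygotes (edgeR adjusted p = 0.00061), and Fermt2, a kindlin, by 0.31 in wild type and 0.36 in heterozygotes (adjusted p = 0.029 and 0.013). Vasp, a relative of Enah, fell by 0.50 in wild type (edgeR adjusted p = 0.0129), and Actn2 rose by 0.32 and 0.33 (adjusted p = 0.0205 and 0.018). Of 22 Xin, Nrap and disc-enriched muscle genes, 7 rose and 2 fell in wild type and 6 rose in heterozygotes. Ank3, ankyrin G, rose by 0.71 and 0.63 (edgeR adjusted p = 2.57e-05 and 9.15e-05). Ldb3, a Z-disc PDZ protein, rose by 0.33 and 0.58 (edgeR adjusted p = 0.0105 and 3.32e-05), and Cmya5 by 0.58 and 0.43 (adjusted p = 0.00183 and 0.0198). Cavin4, a caveolar coat gene of muscle, rose by 0.61 in wild type (edgeR adjusted p = 0.0055). Klhl31 rose by 0.37 and 0.47 (edgeR adjusted p = 0.0193 and 0.00325), and Fhl2 fell by 0.64 in wild type (adjusted p = 0.000212). Xirp2, the sister gene of Xirp1, rose by 0.93 in heterozygotes (edgeR adjusted p = 0.0437); it was named for that kinship after its value was seen.

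Of 14 tested connexins and gap junction partners, Dlg1 rose by 0.43 and Cav3, the muscle caveolin, fell by 0.64 in wild type (edgeR adjusted p = 0.00919 and 0.0109). Bves, a membrane protein of the disc, rose by 0.37 in heterozygotes (edgeR adjusted p = 0.0266). Of 8 tested desmosome genes, Dsp rose by 0.99 in wild type (edgeR adjusted p = 0.00106) and Dsg2, a desmosomal cadherin, by 0.49 in heterozygotes (adjusted p = 0.045), while Jup, also on this list, fell in both. Dsp was not called in heterozygotes, yet its exercised libraries (705 to 939 CPM) lay above the regular ones (581 to 680) without overlap. Such separation held for 9.12% of all tested genes. In wild type the Dsp ranges overlapped (928 to 1907 and 636 to 1021 CPM). Over all tested genes 9.69% were called in wild type and 8.82% in heterozygotes, so counts this small are not read as a trait of the lists. Of the 12 ventricular markers 7 were higher and 5 lower in wild type (median 0.05), and 8 higher and 4 lower in heterozygotes (median 0.09). Of these Tnnt2 rose by 0.56 and 0.60 (edgeR adjusted p = 0.0013 and 0.000658). The others called were Ttn, which rose by 0.47 in wild type (edgeR adjusted p = 0.0487) and Ryr2, which rose by 0.45 in heterozygotes (adjusted p = 0.00444). With mitochondrial genes removed, the exercise values were 0.41 and 0.43 for Cdh2 and -0.40 and -0.30 for Ctnnb1.

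Between regular and exercised heterozygotes, 0 markers of fibroblasts, endothelium, pericytes or macrophages were called by edgeR, against 8.82% of all tested genes. Most of these markers had lower values. Below 0 on the log2 scale were 11 of 12 fibroblast (median -0.52), 11 of 12 endothelial (-0.49), 8 of 9 pericyte and smooth muscle (-0.61) and 10 of 10 macrophage markers (-0.51). Summed fibroblast markers ran from 543 to 918 CPM in regular and 212 to 1155 in exercised heterozygotes, endothelial from 568 to 1220 and 354 to 714, and macrophage from 54.5 to 108 and 18.3 to 134. In wild type 10 of 12 fibroblast markers were lower (median -0.21; Fbln1 was called) and 10 of 12 endothelial markers higher (median 0.32). Summed fibroblast markers there ran from 393 to 534 CPM and 168 to 651, and endothelial from 523 to 764 and 436 to 1907. No marker on these lists was at 0 in a whole group, and the part of these cells in the exercise values of the junction genes was not tested.

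Age left the set without a call: 0 of 10 genes in wild type, where 0.860% of all genes were called by edgeR, and 0 of 10 in heterozygotes, where 3.43% were. An unadjusted p under 0.05 by edgeR was reached by 1 of the 10 in wild type and 4 in heterozygotes. Of all 15587 tested genes, 1908 in wild type and 3052 in heterozygotes also reached it. With only 10 genes, nothing is read from these counts. Vcl came nearest, with 130, 110, 109.5, 150 and 110.5 CPM in 3-month heterozygotes and 105, 103, 97.6, 89.7 and 83.3 at 6 months, which do not overlap. Its difference was -0.35 (SE 0.115, edgeR adjusted p = 0.0809), and -0.19 in wild type (adjusted p = 0.535). Ap3m1, which shares 25.5% of the Vcl exon bases, differed by 0.06 with age in heterozygotes (edgeR adjusted p = 0.837). The part of shared bases in the Vcl values was not tested. Groups did not overlap for 3.88% of all genes with age in wild type and 7.24% in heterozygotes, and for 0 and 1 of the 10. Ctnna1 differed by -0.25 in wild type and -0.21 in heterozygotes (edgeR adjusted p = 0.263 and 0.24), and Ctnnd1 by 0.26 and 0.44 (adjusted p = 0.638 and 0.208). The remaining 6 partners lay between -0.23 and 0.30 in both.

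The interaction of genotype with age was called for 0 of 10 members and for 0% of all genes by edgeR, with 0 of the 10 at an unadjusted p under 0.05 and 1253 of all genes there. In the lists, 0 genes were called with age in wild type, where 0.860% of all tested genes were. The share over all tested genes with age in heterozygotes was 3.43%. In heterozygotes Afdn, afadin, rose by 0.69 (edgeR adjusted p = 0.0287) and the endothelial cadherin Cdh5 by 1.31 (adjusted p = 0.0131). Dsc2, a desmosomal cadherin, fell by 0.51 (edgeR adjusted p = 0.0344), Tln2, a talin, by 0.41 (adjusted p = 0.0292) and Actn2, the sarcomeric actinin, by 0.31 (adjusted p = 0.0481). In the same comparison 6 of 12 fibroblast, 4 of 12 endothelial, 4 of 10 macrophage and 1 of 9 pericyte markers rose, and 2 of 12 ventricular markers fell. The part of these cell types in the values of the junction genes was not tested.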

How the data were processed

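The authors deposited 1 table of raw gene counts for 30 libraries. Per the labels' protocols, ribosomal RNA was removed and libraries were strand-specific and paired-end. Build mm10 and the tools HISAT2, featureCounts and Trim Galore are named in the submitters' processing notes. The annotation release and strand setting are not given in the sources used here, so genes that share bases may share counts. Spike-in entries (23) were left out. Exon lengths came from GENCODE M21.

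Counts were filtered with filterByExpr (15587 genes, all 10 members), scaled by TMM and tested with edgeR's quasi-likelihood test (edgeR 4.0.16, R 4.3.3; robust, 24 residual degrees of freedom, Benjamini-Hochberg over all tested genes, called under 0.05). The SE is the log2 fold change over the square root of F. Log2 CPM adds a prior count of 2. The method was tested on simulated data. Members and lists were chosen with earlier results of these data known. All members were named, list genes by the smallest p among those called (up to 4 per list), and like genes by Pearson r at a mean log2 CPM of at least 1. Alternatives used limma 3.58.1 and DESeq2 1.42.0.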

Additional observations from a re-analysis of the deposited data

Results flagged for a closer look

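In groups of 5 libraries, a library is listed here when its gap to the nearest other, divided by the range of its group, exceeded 0.71, Dixon's 95% critical value. Chance gives this in about 1 in 20 groups, and 60 groups (10 genes in 6 groups) were examined, of which 6 passed. Ctnna1 was 559 CPM in 3-month heterozygote 1 and 508 CPM in 6-month wild type 2, each the highest of its group. Cdh2 was 302 CPM in exercised wild type 1, below the other 4 exercised wild types. Gja1 was 739 CPM in 6-month heterozygote 5. Exercised heterozygote 4 was far above its group in Nrap (1542 CPM) and Ctnnb1 (334 CPM), and its ratios for Xirp1 and Gja1, both 0.707, fell just short.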

How the results depend on the processing

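In this paragraph the genotype comparisons count the 9 partners and the others all 10 genes. The number called stayed within 1.5 times the counts given in 85 of 88 alternative counts other than leaving out 1 library. The exceptions were exercise in heterozygotes, with 1 member called at an adjusted p under 0.01 and 5 with limma-voom, and age in heterozygotes, with 2 (Ctnna3 and Vcl, adjusted p of 0.0415 and 0.0401). Leaving out each library gave 2 to 4 called with exercise in wild type, 2 to 3 in heterozygotes and 0 elsewhere. The calls of Ctnnb1 in heterozygotes and Tjp1 in wild type were lost under the alternatives given beside them. Replicate numbers do not pair the libraries (same-numbered deviations correlated between -0.252 and 0.154); with a replicate block the counts were 3 and 3 with exercise and 0 elsewhere. Direction changed for 24 values, none with an adjusted p under 0.591 in the edgeR test reported; the cause was not tested. With DESeq2 size factors, log2 values were: genotype at 6 months Ctnna1 0.01. With no low-count filter, log2 values were: genotype with exercise Xirp1 -0.01, exercise in wild type Ctnna3 -0.01, Ctnna1 -0.01, exercise in heterozygotes Ctnna1 -0.01. With the replicate block, log2 values were: genotype with exercise Tjp1 0.00, Xirp1 0.00. With only the groups compared in the fit, log2 values were: genotype at 6 months Ctnna1 0.00. With limma-voom, log2 values were: genotype at 6 months Cdh2 -0.04, genotype with exercise Vcl -0.01, Tjp1 0.10, Nrap -0.12, Xirp1 -0.12, exercise in wild type Vcl 0.02, interaction of genotype with exercise Tjp1 0.05. With the DESeq2 Wald test, log2 values were: genotype at 6 months Ctnna1 0.01. Without the 3 wild types holding transcripts of both sexes, log2 values were: genotype at 6 months Ctnna1 0.02, exercise in wild type Vcl 0.00. Without 3-month heterozygotes 1 and 2 (chosen after seeing the data), log2 values were: genotype at 3 months Ctnnd1 -0.17, Gja1 -0.16. Without exercised wild type 1 and heterozygote 4 (chosen after seeing the data), log2 values were: genotype with exercise Cdh2 -0.02, Tjp1 0.13, Nrap -0.18, Xirp1 -0.17, exercise in wild type Gja1 0.04, exercise in heterozygotes Ctnna1 -0.01, interaction of genotype with exercise Cdh2 -0.05, Tjp1 0.03, Nrap -0.06. Leaving out each library in turn gave these log2 ranges: for genotype at 3 months, Ctnnb1 -0.06 to 0.01, Ctnnd1 -0.07 to 0.11, Vcl -0.02 to 0.13. For age in wild type, Ctnna3 -0.10 to 0.01. For genotype at 6 months, Ctnna1 -0.08 to 0.06, Ctnnb1 -0.08 to 0.01, Cdh2 -0.04 to 0.06. For exercise in wild type, Ctnna3 -0.03 to 0.08, Ctnna1 -0.02 to 0.08, Vcl -0.07 to 0.03, Gja1 -0.21 to 0.04. For interaction of genotype with exercise, Cdh2 -0.07 to 0.09, Tjp1 -0.19 to 0.01. For exercise in heterozygotes, Ctnna3 -0.32 to 0.00, Ctnna1 -0.07 to 0.09. For genotype with exercise, Ctnna1 -0.07 to 0.01, Cdh2 -0.04 to 0.07, Tjp1 -0.09 to 0.11, Gja1 -0.23 to 0.09, Nrap -0.10 to 0.10, Xirp1 -0.14 to 0.05.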

Other observations

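The gene nearest to each partner over the 30 libraries, by Pearson r of log2 CPM, was Celf2 for Cdh2 (0.916), Clip1 for Nrap (0.908), Zfp738 for Ctnnd1 (0.876), Ddb1 for Ctnna1 (0.864) and Tacc1 for Tjp1 (0.858). It was Scarna13 for Ctnnb1 (0.819), Dusp27 for Vcl (0.771), Samd4 for Xirp1 (0.731) and Fbxw7 for Gja1 (0.724). No gene is the nearest of more than 1 partner. These are descriptions over libraries that share genotype, age, exercise and library set, with no test.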
